A study of Homo sapiens with 12 samples.

Results

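The translation initiation factor genes were followed across an RNA sequencing experiment in U2OS cells, a human osteosarcoma line. They were taken by symbol from the table of raw gene counts, as every gene named EIF1 to EIF6 with its subunit letters. Of 94 matching symbols among the 58735 genes of the table, 52 were kept. The 38 pseudogenes, EIF1AY and 3 genes with a summed count under 120 over all libraries (EIF4EBP3 with 34, EIF2S3B with 15 and EIF4E1B with 2) were left out. The 52 genes hold 46 core factors, 4 EIF2AK kinases and 2 EIF4EBP genes. The core factors fall into 6 scanning and subunit joining factors, 5 genes of eIF2 and eIF2-like factors, 5 of eIF2B, 14 of eIF3, 12 of eIF4, and 4 of eIF5A and eIF6.

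Cells were given TH10785 and PNKP1i together, TH10785 alone, PNKP1i alone, or DMSO, with each compound at 10 µM and all for 24 h, and each of the 4 groups had 3 libraries. TH10785 is known as an activator of OGG1, the DNA glycosylase that cuts out oxidised guanine at the start of base excision repair. PNKP1i is labelled only by that name, and the series record spells the first compound TH10587. All cells came from the same line and the same serum-containing medium, and the labels do not say whether the replicates were separate cultures, so p-values measure no more than the spread between these libraries, which can be technical.

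Initiation begins when eIF2, carrying GTP and the initiator methionyl tRNA, joins the small ribosomal subunit together with eIF1, eIF1A, eIF3 and eIF5. The eIF4 proteins bring the messenger RNA: eIF4E holds the cap, eIF4G is the scaffold and eIF4A unwinds the leader, after which the complex scans to a start codon and eIF5B joins the large subunit. The best known brakes on this path are phosphorylation of eIF2 alpha by the EIF2AK kinases, which blocks the exchange factor eIF2B, and capture of eIF4E by the 4E-BPs, which mTORC1 relieves. All values below are RNA levels and say nothing of protein or phosphorylation.

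Total counts ran from 16225339 to 21546369 per library, and all 52 genes passed the filter on low counts that left 17290 genes for testing. The 52 genes took 1.110% to 1.202% of all counts in the 3 libraries with both compounds, against 0.987% to 1.03% in the other 9. These are shares of raw counts, before the TMM scaling used for all levels below. The TMM factors, by which such shares are divided, were 1.087 to 1.138 in the 3 both-compound libraries and 0.876 to 1.011 in the other 9. The raw shares therefore do not show a rise on the scaled levels. TH10785 replicate 3 differed from its partners: genes with under 40% GC lay 0.50 below the DMSO mean there (median log2 difference over 2369 genes), while its partners lay 0.17 and 0.08 above it. Of the bone and mesenchymal markers VIM, SPARC, RUNX2, CDH2 and ALPL were detected and COL1A2 was near 0. Of the markers of other lineages, EPCAM and CDH1 were low, and KRT20, PTPRC, CD3E and ALB were at or near 0. The endothelial marker PECAM1, also on that list, is not reported here.

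Levels of the 52 genes spanned a wide range. In DMSO, EIF5A stood highest per kb of exon. It was at 253 CPM (counts scaled to library size) per kb with both compounds and 340.1 with DMSO, and EIF3I, EIF4H, EIF1 and EIF4EBP1 came next in DMSO. With both compounds EIF4EBP1 stood highest, at 371 CPM per kb, against 165 with DMSO. The lowest were EIF5AL1, EIF4E3 and EIF4A1, all under 1.14 CPM per kb in DMSO. The cap-binding gene EIF4E was among the low ones, at 2.42 CPM per kb with both compounds and 1.47 with DMSO, while its scaffold EIF4G1 was at 84.6 with both compounds and 119.6 with DMSO. Length here covers all annotated exons of a gene, 14067 bases for EIF4E and 8257 for EIF4G1. Levels per kb therefore compare different genes only roughly. Some of these levels cannot be read as the level of 1 gene. Every 100-base word of the EIF4A1 transcript also occurs in another annotated gene (AC016876.2 and the readthrough gene SENP3-EIF4A1 among them), and genes on the same strand overlap 48.6% of its exon bases. EIF3CL shares 97.1% of its words with EIF3C and EIF3C 48.3% of its words with EIF3CL, so both are uncertain. Shares of 52.8% for EIF3L, 29.3% for EIF4E2 and 25.3% for EIF2B2 also limit those genes, and EIF5A shares 13.0% of its words with EIF5AL1 and other copies. The sources used here do not say whether strand was used in counting.

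**Figure D1:**
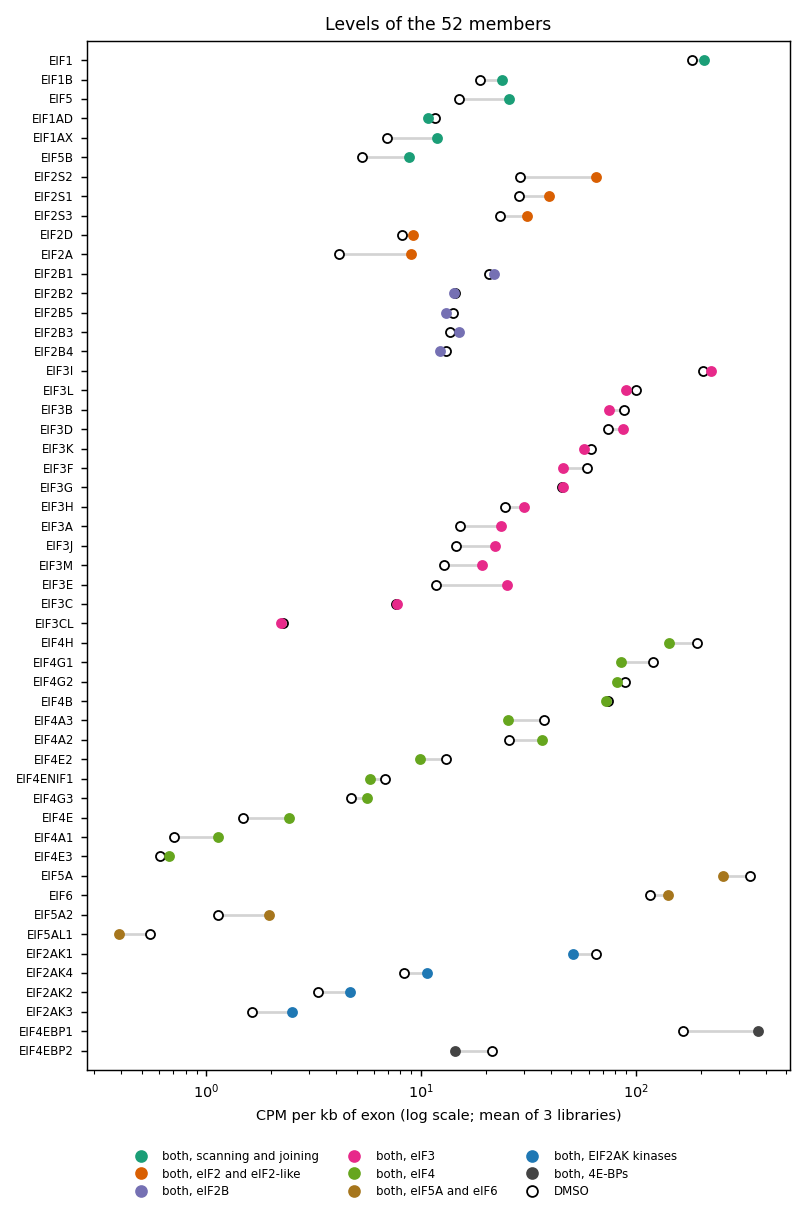
Mean level of each of the 52 genes in CPM per kb of exon (log axis) with both compounds (filled, coloured by role) and with DMSO (open), ordered within each role by the DMSO level. EIF5A stands highest in DMSO and EIF5AL1 lowest, and EIF2S2, EIF2A and EIF3E show wide gaps between the filled and the open point.

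With both compounds the genes of initiation moved in both directions, rises outnumbering falls. EIF2S2, EIF4EBP1, EIF2A and EIF3E had the largest rises, and EIF4EBP2, EIF4A3 and EIF4G1 the largest falls. Against DMSO, 28 of the 52 genes passed edgeR's quasi-likelihood test at a Benjamini-Hochberg adjusted p under 0.05 over all genes tested, where 41% of all 17290 genes did. Among the 46 core factors 16 rose (34.8%, against 21.3% of all genes) and 6 fell (13%, against 19.7%). Their median log2 fold change was 0.13, against 0.04 over all genes tested. It was 0.0740 without DMSO replicate 3 and 0.21 without both-compound replicate 3, and with per-library offsets for GC content and length it was 0.00333, against 0.00628 over all genes. The 3 libraries with both compounds lay clear of the 3 DMSO libraries for 36 of the 52 genes (69.2%), against 53.6% of all genes. EIF2S2, EIF2A and EIF3E were the 3 core factors that rose past 2-fold. Counts are shares of each library, so fewer cells in a given state and less RNA per cell cannot be told apart. The count of core factors that fell was 3 without both-compound replicate 1 or 3, or without DMSO replicate 2. Over all genes 2731, 2823 and 2628 fell in those fits, against 3413 with every library. With the offsets 6 of the 16 rises and 4 of the 6 falls kept their calls. Together with genes that gained a call, 8 core factors rose and 5 fell in that fit, where 2863 of all 17290 genes rose and 3023 fell.

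**Figure D2:**
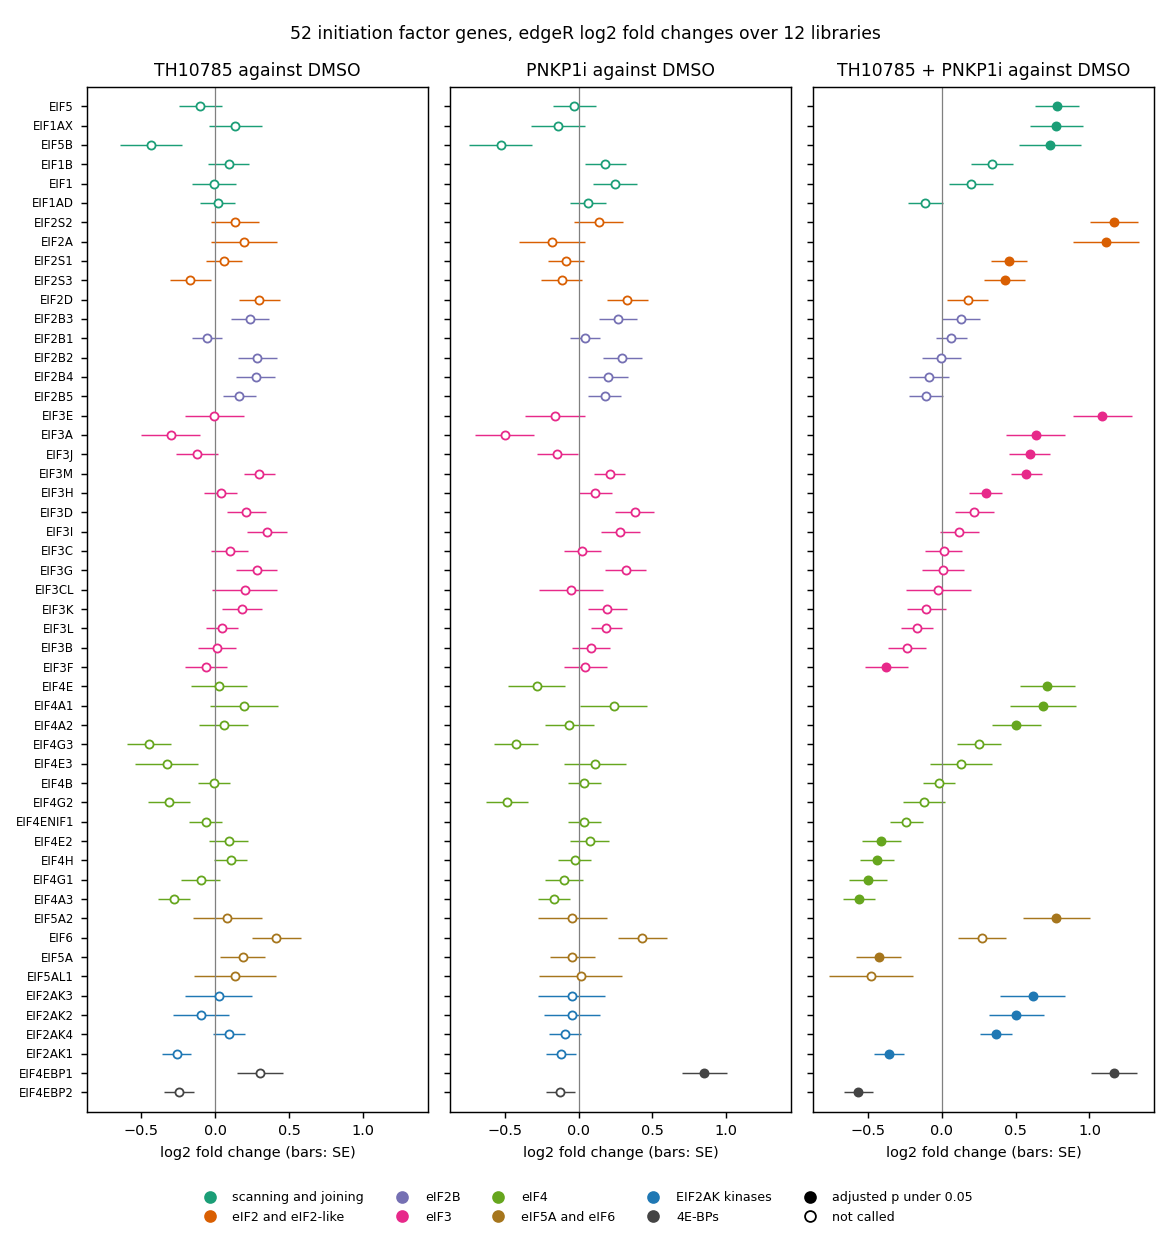
Log2 fold changes with SE bars for the 52 genes against DMSO, with TH10785 (left), PNKP1i (middle) and both compounds (right), grouped and coloured by role. Filled points passed an adjusted p of 0.05: none with TH10785, EIF4EBP1 alone with PNKP1i, and 28 with both compounds.

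The scanning and subunit joining factors showed 3 rises and 0 falls among 6 genes, where 21.3% of all genes rose and 19.7% fell. Their median log2 fold change was 0.54. EIF5, the GTPase-activating protein that makes eIF2 hydrolyse its GTP at the start codon (ENSG00000100664, chromosome 14, 103333544 to 103345025, on GRCh38 with GENCODE 29), stood at 239, 195 and 219.6 CPM with both compounds, 137, 130.4 and 87.3 in TH10785 cells, 124, 125 and 124 in PNKP1i cells and 122, 116 and 142 in DMSO cells. All 3 libraries with both compounds lay above the other 9, and EIF5 rose 1.72-fold against DMSO (log2 0.78, SE 0.15, adjusted p = 0.000661). EIF1AX, which encodes eIF1A, a guide of scanning and start codon choice, was at 53.2, 50.7 and 52.9 CPM with both compounds, 38.8, 40.1 and 21.9 in TH10785 cells, 26.05, 31.9 and 25.2 in PNKP1i cells and 31.6, 27.2 and 32.8 in DMSO cells. Its both-compound libraries also lay above all others (log2 0.77, SE 0.18, adjusted p = 0.00301). EIF5B, the GTPase of subunit joining, read 76.02, 53.3 and 78.9 CPM with both compounds, 37.9, 36.2 and 18.6 in TH10785 cells, 27.9, 26.6 and 32.5 in PNKP1i cells and 36.9, 45.9 and 42.7 in DMSO cells. Its both-compound libraries lay above the other 9, and both single agents had means below the DMSO mean (log2 0.73, SE 0.21, adjusted p = 0.0107 for both compounds).

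EIF1 and its paralogue EIF1B, which keep the scanning complex open until a start codon is met, did not pass. EIF1 had 909, 670.1 and 679 CPM with both compounds, 589, 607 and 762 in TH10785 cells, 813, 719 and 806 in PNKP1i cells and 568, 705 and 695 in DMSO cells, and the groups overlapped (log2 0.20, SE 0.15, adjusted p = 0.299). EIF1B had 55.1, 38.8 and 41.9 CPM with both compounds, 37.6, 35.97 and 40.4 in TH10785 cells, 44.3, 39.3 and 37.97 in PNKP1i cells and 31.5, 37.2 and 38.4 in DMSO cells, with the both-compound libraries just above the DMSO libraries (log2 0.34, SE 0.14, adjusted p = 0.0601). EIF1AD, named for its similarity to eIF1A, was at log2 -0.11. With GC and length offsets EIF5 kept its call (log2 0.41, adjusted p = 0.00195), while EIF1AX (log2 0.10, adjusted p = 0.525) and EIF5B (log2 0.16, adjusted p = 0.344) did not.

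Every gene of the eIF2 heterotrimer rose with both compounds, as did EIF2A, where 21.3% of all genes rose. EIF2S2, the beta subunit that contacts eIF5 and eIF2B (ENSG00000125977, chromosome 20, 34088298 to 34112332), was at 165, 166 and 185 CPM with both compounds, 104, 92.3 and 55.8 in TH10785 cells, 83.8, 82.6 and 86.3 in PNKP1i cells and 74.2, 74.3 and 81.5 in DMSO cells. The lowest both-compound library was above the highest of the other 9, and EIF2S2 rose 2.24-fold (log2 1.17, SE 0.16, adjusted p = 6.69e-05). EIF2A, a separate single-chain factor that can bring initiator tRNA without being part of eIF2 (ENSG00000144895, chromosome 3, 150546678 to 150584242), measured 34.8, 36.2 and 40.2 CPM with both compounds, 25.1, 22.8 and 11.1 in TH10785 cells, 13.4, 17.7 and 14.3 in PNKP1i cells and 18.5, 15.1 and 17.8 in DMSO cells. It rose 2.16-fold (log2 1.11, SE 0.22, adjusted p = 0.00102), and TH10785 replicate 3 was its lowest library.

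The other eIF2 subunits rose less. EIF2S1, the alpha subunit that the EIF2AK kinases phosphorylate, stood at 217, 234 and 214 CPM with both compounds, 189.7, 179.7 and 135 in TH10785 cells, 148, 154 and 155 in PNKP1i cells and 171, 154 and 159 in DMSO cells (log2 0.46, SE 0.12, adjusted p = 0.007). EIF2S3, the gamma subunit that binds GTP and the tRNA, had 109.8, 105 and 110.0 CPM with both compounds, 80.5, 79.9 and 54.5 in TH10785 cells, 76.5, 74.9 and 72.1 in PNKP1i cells and 76.3, 73.2 and 92.1 in DMSO cells (log2 0.43, SE 0.14, adjusted p = 0.0205). For both genes the both-compound libraries lay above all 9 others. EIF2D, a ligatin-like factor used in non-canonical initiation and ribosome recycling, was at log2 0.18 (adjusted p = 0.33). With GC and length offsets EIF2S2 (log2 0.98, adjusted p = 1.57e-05) and EIF2A (log2 0.50, adjusted p = 0.0059) kept their calls, while EIF2S1 turned direction (log2 -0.07, adjusted p = 0.626) and EIF2S3 lost its call (log2 0.06, adjusted p = 0.67). EIF2S3 also lost its call without both-compound replicate 3 or DMSO replicates 1 or 2 (log2 0.36 to 0.42, adjusted p between 0.0522 and 0.098).

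None of the 5 eIF2B genes passed against DMSO, where 41% of all genes did, and their log2 fold changes lay between -0.10 and 0.13. The eIF2B complex, a decamer of alpha to epsilon subunits, reloads eIF2 with GTP and is the target of phosphorylated eIF2. EIF2B5, the catalytic epsilon subunit, had 98.3, 98.3 and 85.1 CPM with both compounds, 102, 110.3 and 126 in TH10785 cells, 113, 112 and 116 in PNKP1i cells and 107, 106 and 89.8 in DMSO cells. EIF2B4, the delta subunit of the regulatory core, had 66.7, 69.5 and 60.1 CPM with both compounds, 75.6, 72.9 and 103 in TH10785 cells, 77.7, 77.99 and 83.1 in PNKP1i cells and 73.7, 73.8 and 60.6 in DMSO cells. EIF2B2, the beta subunit of that core, had 79.7, 81.2 and 71.6 CPM with both compounds, 80.05, 88.7 and 115 in TH10785 cells, 98.3, 90.3 and 97.97 in PNKP1i cells and 80.4, 83.99 and 68.8 in DMSO cells. For these 3 genes the both-compound and DMSO libraries overlapped, and DMSO replicate 3 was the lowest DMSO library of each. EIF2B1 and EIF2B3 were at log2 0.07 and 0.13.

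Subunits of eIF3, the large scaffold that binds the small subunit and links it to eIF4G, did not move as 1 block. Of the 14 genes 5 rose and 1 fell, with a median log2 fold change of 0.07, where 21.3% of all genes rose and 19.7% fell. EIF3E, a subunit of the octameric core, stood at 137, 133 and 179.8 CPM with both compounds, 88.6, 75.3 and 46.8 in TH10785 cells, 53.6, 76.9 and 59.01 in PNKP1i cells and 81.9, 69.2 and 60.5 in DMSO cells. The both-compound libraries were all above the other 9, and EIF3E rose 2.12-fold (log2 1.09, SE 0.20, adjusted p = 0.000569). EIF3M, also of the octamer, had 143, 147 and 135 CPM with both compounds, 125, 123 and 103 in TH10785 cells, 109, 115 and 107 in PNKP1i cells and 100.5, 89.9 and 95.001 in DMSO cells (log2 0.57, SE 0.11, adjusted p = 0.000607). Its DMSO libraries were below those of every other group.

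EIF3A, the largest subunit and the backbone on which the complex assembles (ENSG00000107581, chromosome 10, 119033670 to 119080823), measured 179, 135 and 187 CPM with both compounds, 111, 99.2 and 51.2 in TH10785 cells, 73.3, 78.4 and 76.5 in PNKP1i cells and 99.9, 113 and 109.6 in DMSO cells (log2 0.64, SE 0.20, adjusted p = 0.0178). EIF3J, a loosely bound subunit that sits in the decoding centre, measured 77.7, 63.2 and 69.2 CPM with both compounds, 47.7, 46.5 and 33.5 in TH10785 cells, 40.4, 43.8 and 41.7 in PNKP1i cells and 41.2, 47.8 and 50.2 in DMSO cells (log2 0.59, SE 0.14, adjusted p = 0.00308). In both genes the both-compound libraries lay above all others, and TH10785 replicate 3 was the lowest library. EIF3H, of the octamer, rose by log2 0.30 (adjusted p = 0.0417), and EIF3F, its partner in an MPN domain pair, fell by 0.37 on the log2 scale (adjusted p = 0.0459). Both calls were near the threshold: that of EIF3H was lost without both-compound replicates 1, 2 or 3, TH10785 replicate 2, PNKP1i replicates 2 or 3 or DMSO replicates 1, 2 or 3 (log2 0.26 to 0.34, adjusted p between 0.0519 and 0.126), and that of EIF3F without both-compound replicates 1, 2 or 3, TH10785 replicate 2, PNKP1i replicates 1, 2 or 3 or DMSO replicates 2 or 3 (log2 -0.41 to -0.30, adjusted p between 0.052 and 0.161). The call of EIF3A was lost without both-compound replicates 1 or 3 or DMSO replicate 1 (log2 0.56 to 0.59, adjusted p between 0.055 and 0.067).

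The remaining 8 eIF3 genes, among them the RNA-binding EIF3B and EIF3G and the WD-repeat subunit EIF3I, lay between log2 -0.23 and log2 0.22 and did not pass. EIF3G had 165, 169 and 142 CPM with both compounds, 167, 172 and 236 in TH10785 cells, 205, 178 and 206 in PNKP1i cells and 169, 167 and 137 in DMSO cells, and EIF3I had 374, 425 and 353 CPM with both compounds, 401, 431 and 517 in TH10785 cells, 452, 397 and 439.7 in PNKP1i cells and 395, 361 and 303 in DMSO cells. In both genes the both-compound and DMSO libraries overlapped, and the PNKP1i libraries lay above the DMSO libraries. With GC and length offsets EIF3E (log2 0.37, adjusted p = 0.0145), EIF3A (log2 0.37, adjusted p = 0.0252) and EIF3F (log2 -0.80, adjusted p = 0.0492) kept their calls and EIF3D gained a rise (log2 0.30, adjusted p = 0.0312). In that fit EIF3M (-0.00297 on the log2 scale), EIF3J (-0.04) and EIF3H (-0.20) were no longer above 0.

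The eIF4 genes moved in both directions, as all genes did, with 3 rises and 4 falls among 12. Of all genes 21.3% rose and 19.7% fell. EIF4E, which binds the cap and is often limiting for initiation, was at 32.5, 30.97 and 38.8 CPM with both compounds, 25.3, 24.1 and 14.04 in TH10785 cells, 15.7, 16.5 and 18.9 in PNKP1i cells and 18.4, 20.3 and 23.5 in DMSO cells. All 3 both-compound libraries lay above the other 9, a 1.64-fold rise against DMSO (log2 0.72, SE 0.19, adjusted p = 0.00667). Its relative EIF4E2, also called 4EHP, which binds caps without recruiting eIF4G, had 60.1, 83.8 and 67.8 CPM with both compounds, 90.7, 94.9 and 114 in TH10785 cells, 100.2, 98.2 and 97.9 in PNKP1i cells and 101, 95.96 and 83.9 in DMSO cells. The both-compound libraries were below the other 9, replicate 2 only just, and EIF4E2 fell (log2 -0.41, SE 0.13, adjusted p = 0.0203), a call lost without both-compound replicates 1 or 3 or DMSO replicates 1 or 2 (log2 -0.39 to -0.30, adjusted p between 0.0648 and 0.101).

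The scaffold EIF4G1 (ENSG00000114867, chromosome 3, 184314495 to 184335358) stood at 739, 663 and 693 CPM with both compounds, 865, 881 and 1017 in TH10785 cells, 1018, 811 and 934 in PNKP1i cells and 885, 981 and 1096 in DMSO cells. Its both-compound libraries were below all 9 others, and it fell to 0.707 of the DMSO level (log2 -0.50, SE 0.13, adjusted p = 0.00594). EIF4G2, also called DAP5, a relative that lacks the eIF4E site, had 725, 675 and 719.7 CPM with both compounds, 704, 683 and 466 in TH10785 cells, 561, 570.4 and 517 in PNKP1i cells and 746, 729.5 and 825 in DMSO cells, and EIF4G3, the close paralogue of EIF4G1, had 57.3, 47.2 and 56.5 CPM with both compounds, 38.9, 35.03 and 25.2 in TH10785 cells, 33.3, 36.6 and 30.96 in PNKP1i cells and 45.4, 42.8 and 46.99 in DMSO cells. Neither passed against DMSO (log2 -0.12, SE 0.14, adjusted p = 0.531 for EIF4G2 and log2 0.25, SE 0.15, adjusted p = 0.178 for EIF4G3). For both genes the PNKP1i and TH10785 libraries lay below the DMSO libraries, without passing the test.

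EIF4A3, a helicase of the exon junction complex rather than of initiation itself, was at 123, 135 and 119 CPM with both compounds, 148, 138 and 172 in TH10785 cells, 169, 166 and 161 in PNKP1i cells and 191, 189 and 177 in DMSO cells. It fell to 0.678 of the DMSO level with both compounds (log2 -0.56, SE 0.11, adjusted p = 0.000845), and every treated library lay below every DMSO library. The initiation helicase gene EIF4A2 had 201, 213 and 253 CPM with both compounds, 185, 186 and 117 in TH10785 cells, 134, 172 and 144 in PNKP1i cells and 181, 142 and 147 in DMSO cells and rose (log2 0.51, SE 0.17, adjusted p = 0.0224), a call lost without both-compound replicate 3 or DMSO replicates 2 or 3 (log2 0.41 to 0.46, adjusted p between 0.0791 and 0.1). The counts assigned to EIF4A1, at 6.05, 6.35 and 5.61 CPM with both compounds, 4.90, 4.24 and 3.66 in TH10785 cells, 3.61, 5.65 and 3.95 in PNKP1i cells and 4.43, 3.85 and 2.94 in DMSO cells, also rose (log2 0.68, SE 0.22, adjusted p = 0.0213), a call lost without both-compound replicate 2 or DMSO replicates 2 or 3 (log2 0.53 to 0.71, adjusted p between 0.0517 and 0.105). As given above, none of the EIF4A1 transcript is unique to that gene.

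EIF4H, which helps eIF4A unwind, had 417, 503 and 442 CPM with both compounds, 634, 647 and 701 in TH10785 cells, 643, 576 and 592 in PNKP1i cells and 613, 632 and 600.5 in DMSO cells. The both-compound libraries lay below all others and the gene fell (log2 -0.44, SE 0.11, adjusted p = 0.00605), while EIF4B, which has a like role, was at log2 -0.02 (adjusted p = 0.897). EIF4E3 and EIF4ENIF1, the eIF4E transporter, did not pass either (log2 0.13 and -0.24). With GC and length offsets the calls of EIF4A3 (log2 -0.66, adjusted p = 0.000215), EIF4H (log2 -0.32, adjusted p = 0.0111), EIF4E2 (log2 -0.44, adjusted p = 0.0104) and EIF4A1 (log2 0.67, adjusted p = 0.0157) held and EIF4G2 gained a fall (log2 -0.56, adjusted p = 0.0002). EIF4G1 (log2 -0.17, adjusted p = 0.21), EIF4E (log2 0.18, adjusted p = 0.234) and EIF4A2 (log2 -0.05, adjusted p = 0.722) lost theirs.

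The E-box letters CACGTG are read by MYC-MAX, USF and related factors, and EIF4E is a textbook MYC target. RefSeq promoter windows (GRCh38.p14, 250 bases before to 50 after the start) were found for 43 of the 52 genes, not for EIF3A, EIF2S2, EIF3E, EIF3L, EIF3G, EIF2AK1, EIF4EBP1, EIF3CL and EIF3H. CACGTG, which reads the same on both strands, was in 11 of the 43 (25.58%), against 7.26% of all 35116 windows and 9.78% of the 11588 windows of tested genes. Among those 11 genes EIF2AK2, EIF4E and EIF5A2 rose with both compounds, EIF3F, EIF4A3, EIF4G1 and EIF4H fell, and 4 did not pass. The ETS core CGGAAG, searched on both strands, was in 18 of the 43 (41.86%), against 19.46% of all windows and 31.11% of those of tested genes. TGATGCA, a core of the element that ATF4 with CEBP factors binds, was in the window of EIF3B only (2.33%, against 2.63% of all windows and 1.41% of those of tested genes). The 250 bases before the start are shown for 2 E-box genes that rose, EIF4E (chr4:98929134-98929383, minus strand) and EIF5A2 (chr3:170908638-170908887, minus strand), and for 2 that fell, EIF4G1 (chr3:184314356-184314605, plus strand) and EIF4A3 (chr17:80147129-80147378, minus strand), since the same letters stand before genes that moved in opposite directions. Each runs 5′ to 3′ on the gene's strand, and capitals mark CACGTG and CGGAAG on either strand.
EIF4E: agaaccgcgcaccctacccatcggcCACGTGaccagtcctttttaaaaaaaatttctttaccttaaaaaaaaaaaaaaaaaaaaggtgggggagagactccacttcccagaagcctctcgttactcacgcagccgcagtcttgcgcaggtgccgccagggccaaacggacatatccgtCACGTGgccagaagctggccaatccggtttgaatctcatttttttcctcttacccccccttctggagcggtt
EIF5A2: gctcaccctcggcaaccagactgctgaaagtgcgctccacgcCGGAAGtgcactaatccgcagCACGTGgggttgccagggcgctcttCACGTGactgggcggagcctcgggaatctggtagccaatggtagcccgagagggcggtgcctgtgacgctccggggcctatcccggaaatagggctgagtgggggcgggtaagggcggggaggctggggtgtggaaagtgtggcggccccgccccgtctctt
EIF4G1: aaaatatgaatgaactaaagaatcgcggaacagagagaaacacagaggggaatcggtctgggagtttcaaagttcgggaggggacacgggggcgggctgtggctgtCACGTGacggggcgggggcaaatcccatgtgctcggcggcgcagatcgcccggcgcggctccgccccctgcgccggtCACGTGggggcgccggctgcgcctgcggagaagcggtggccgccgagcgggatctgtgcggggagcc
EIF4A3: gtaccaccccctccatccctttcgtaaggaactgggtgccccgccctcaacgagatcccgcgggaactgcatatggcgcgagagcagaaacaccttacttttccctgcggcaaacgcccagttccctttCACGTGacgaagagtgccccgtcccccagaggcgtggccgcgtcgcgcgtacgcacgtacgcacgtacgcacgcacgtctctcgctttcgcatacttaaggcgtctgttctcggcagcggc
In EIF4E the E-box letters begin 225 and 72 bases before the start, in EIF5A2 187 and 162, in EIF4G1 144 and 67, and in EIF4A3 121. The motifs share no letters with each other, and a match describes these letters, not binding.

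The eIF5A pair moved apart. EIF5A, the hypusine-bearing factor that helps the ribosome through difficult peptide bonds, was at 702, 786 and 649 CPM with both compounds, 924, 992 and 1348 in TH10785 cells, 1039, 790.4 and 961 in PNKP1i cells and 904, 1028 and 941 in DMSO cells. Its both-compound libraries lay below all others and it fell (log2 -0.43, SE 0.15, adjusted p = 0.0332), a call lost without both-compound replicates 1 or 3, PNKP1i replicate 1 or DMSO replicates 2 or 3 (log2 -0.44 to -0.36, adjusted p between 0.0509 and 0.128). EIF5A2, a paralogue of restricted expression in normal tissue, was at 14.2, 8.48 and 9.95 CPM with both compounds, 8.09, 7.30 and 4.77 in TH10785 cells, 5.92, 6.62 and 5.97 in PNKP1i cells and 5.21, 7.21 and 6.64 in DMSO cells and rose (log2 0.78, SE 0.23, adjusted p = 0.0125), a call lost without both-compound replicate 1 or DMSO replicate 1 (log2 0.55 to 0.65, adjusted p between 0.0613 and 0.075). With GC and length offsets neither passed (log2 -0.27, adjusted p = 0.0784 for EIF5A and log2 0.08, adjusted p = 0.753 for EIF5A2). EIF6, which keeps the large subunit from joining too early, was at log2 0.27 (adjusted p = 0.198) and passed with the offsets (log2 0.45, adjusted p = 0.00946), and EIF5AL1 at -0.48 did not pass.

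All 4 kinases of eIF2 alpha passed against DMSO with both compounds, 3 upward and 1 downward, where 41% of all genes passed. EIF2AK3 (PERK), the kinase of endoplasmic reticulum stress, was at 15.9, 11.1 and 13.9 CPM with both compounds, 12.1, 8.64 and 6.44 in TH10785 cells, 7.61, 10.4 and 7.90 in PNKP1i cells and 7.90, 8.43 and 10.4 in DMSO cells (log2 0.61, SE 0.22, adjusted p = 0.0356). EIF2AK2 (PKR), which senses double-stranded RNA, had 50.3, 44.4 and 56.2 CPM with both compounds, 40.1, 38.4 and 20.7 in TH10785 cells, 31.6, 36.7 and 34.7 in PNKP1i cells and 32.1, 35.4 and 38.7 in DMSO cells (log2 0.51, SE 0.19, adjusted p = 0.0395). EIF2AK4 (GCN2), which senses uncharged tRNA, had 133, 126 and 124 CPM with both compounds, 116, 110.0 and 90.6 in TH10785 cells, 91.4, 91.3 and 95.6 in PNKP1i cells and 98.6, 98.9 and 99.1 in DMSO cells (log2 0.37, SE 0.11, adjusted p = 0.0125). In these 3 genes all both-compound libraries lay above all DMSO libraries. EIF2AK1 (HRI), the haem-regulated kinase, had 288, 277 and 281 CPM with both compounds, 302, 300.3 and 302 in TH10785 cells, 339.7, 319.8 and 339 in PNKP1i cells and 344, 358 and 383 in DMSO cells. Each treated library was below each DMSO library, and it fell with both compounds (log2 -0.36, SE 0.10, adjusted p = 0.00949).

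The calls of EIF2AK4 and EIF2AK1 held with GC and length offsets (log2 0.39, adjusted p = 0.00178 for EIF2AK4 and log2 -0.37, adjusted p = 0.00416 for EIF2AK1). Those of EIF2AK3 (log2 0.44, adjusted p = 0.0539) and EIF2AK2 (log2 -0.04, adjusted p = 0.787) did not. EIF2AK3 lost its call without both-compound replicates 1 or 3 or DMSO replicates 1 or 2 (log2 0.50 to 0.61, adjusted p between 0.0793 and 0.12), and EIF2AK2 without both-compound replicates 1 or 3, PNKP1i replicate 3 or DMSO replicates 1, 2 or 3 (log2 0.43 to 0.57, adjusted p between 0.0534 and 0.133).

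The 4E-BP genes moved in opposite directions. EIF4EBP1, the hypophosphorylated form of whose protein sequesters eIF4E (ENSG00000187840, chromosome 8, 38030341 to 38060365), stood at 441, 417 and 335 CPM with both compounds, 187, 202 and 268 in TH10785 cells, 349, 260.4 and 352 in PNKP1i cells and 178, 189 and 166 in DMSO cells. It rose 2.24-fold with both compounds (log2 1.16, SE 0.16, adjusted p = 4.63e-05) and 1.81-fold with PNKP1i (log2 0.85, SE 0.16, adjusted p = 0.028), and the libraries of both groups lay above every DMSO library. In mouse pancreatic beta cells this gene is known as a target of ATF4. EIF4EBP2, its paralogue (ENSG00000148730, chromosome 10, 70404379 to 70428618), stood at 108, 99.98 and 106 CPM with both compounds, 125, 131 and 135 in TH10785 cells, 143, 143 and 139 in PNKP1i cells and 144, 152 and 168 in DMSO cells. It fell to 0.677 of the DMSO level with both compounds (log2 -0.56, SE 0.10, adjusted p = 0.00043), and both single-agent groups also lay below every DMSO library. Both calls of the combination held under all 22 alternatives, and GC and length offsets moved them further from 0 (1.49 for EIF4EBP1 and -0.77 for EIF4EBP2 on the log2 scale).

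**Figure D3:**
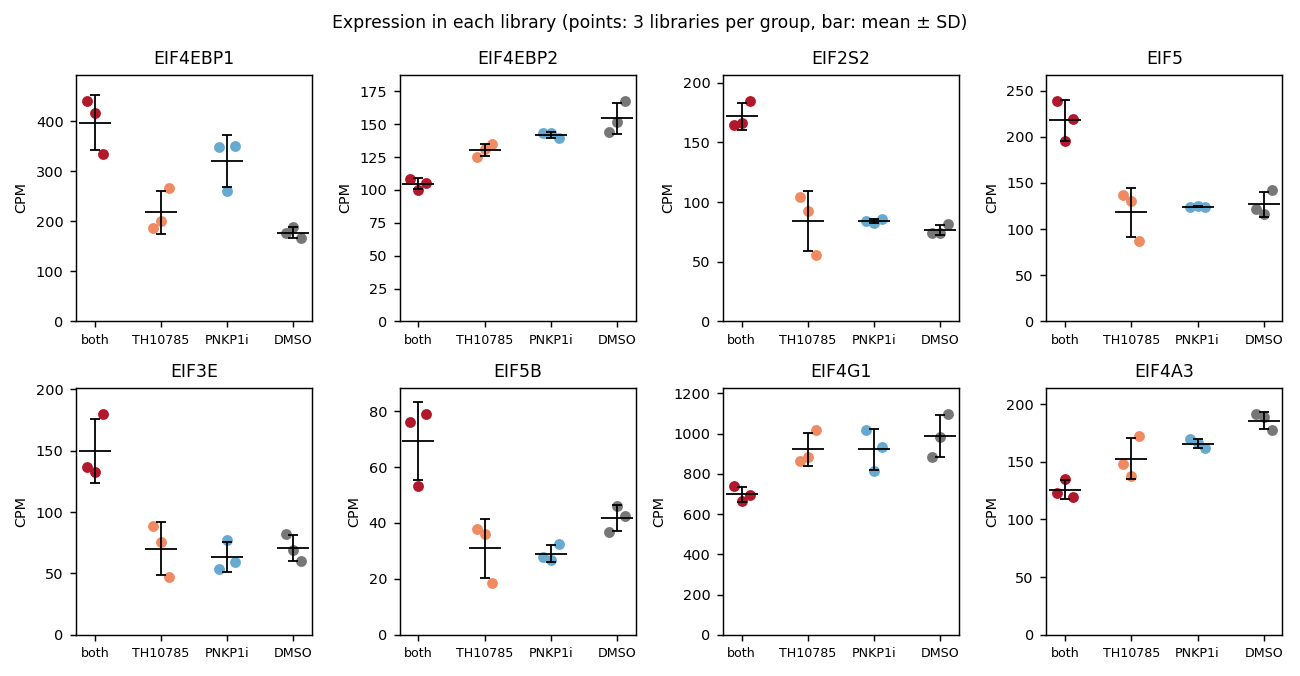
CPM in each library of 8 genes, with both compounds, TH10785, PNKP1i and DMSO from left to right; points are libraries and bars the mean ± SD of 3. EIF4EBP1 is high with both compounds and with PNKP1i, EIF2S2, EIF5, EIF3E and EIF5B are high with both compounds, and EIF4EBP2, EIF4G1 and EIF4A3 are lowest with both compounds.

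Single agents left nearly all of these genes without a call. With TH10785 0 of the 52 passed edgeR's test, against 0.561% of all genes (0.515% up and 0.0463% down), and 10 had an unadjusted p under 0.05. DESeq2, limma-voom and every other alternative also called 0 of them. The smallest adjusted p was 0.185, for EIF4G3 (log2 -0.45). With PNKP1i 1 of the 52 passed, EIF4EBP1, against 0.197% of all genes (0.174% up and 0.0231% down), and 11 had an unadjusted p under 0.05. That call was lost without PNKP1i replicates 1 or 3 or DMSO replicates 1, 2 or 3 (log2 0.78 to 0.90, adjusted p between 0.112 and 0.227). The 3 PNKP1i libraries nonetheless lay clear of the 3 DMSO libraries for 22 of the 52 genes (42.3%), against 25.9% of all genes, and the TH10785 libraries for 8 (15.4%, against 19.7%).

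With PNKP1i, the largest differences without overlap among genes not called were the lower EIF5B (log2 -0.53), EIF3A (-0.50), EIF4G2 (-0.48) and EIF4G3 (-0.42) and the higher EIF6 (0.43). The eIF2B genes had a median of 0.24 with TH10785 and 0.20 with PNKP1i.

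A fit on the PNKP1i and DMSO libraries alone, with 1150 calls over all genes, called 7 core factors: EIF6, EIF3D and EIF3G upward and EIF5B, EIF3A, EIF4G2 and EIF4G3 downward. Without replicate 3 of TH10785, whose libraries share the spread estimate, EIF3A (log2 -0.48, adjusted p = 0.0338) and EIF4G2 (log2 -0.46, adjusted p = 0.0203) were called lower with PNKP1i by edgeR. The rise of EIF4EBP1 with PNKP1i was also lost when a fold of 1.2 was tested or a replicate block was added.

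Set against each single agent, the combination had genes called in both directions. These comparisons share its 3 libraries with each other and with the comparison to DMSO. Against TH10785, 18 of the 52 genes rose and 7 fell, where 42.3% of all genes passed (22.7% up and 19.7% down). The groups did not overlap for 33 of the 52 genes (63.5%, against 52.2% of all genes). Against PNKP1i, 19 rose and 8 fell, where 46% of all genes passed (24.4% up and 21.5% down), and the groups did not overlap for 37 (71.2%, against 58.2%). Falls outnumbered rises in the fit with GC and length offsets, among the 52 genes and over all genes. Against TH10785 9 of the 52 genes rose and 11 fell, where 2610 of all 17290 genes rose and 3168 fell. Against PNKP1i 9 rose and 11 fell, where 2729 of all genes rose and 3026 fell. EIF5B rose by log2 1.17 against TH10785 and by 1.26 against PNKP1i. EIF3E rose by 1.09 against TH10785 and by 1.25 against PNKP1i, and EIF2S2 by 1.03 against TH10785 and by 1.03 against PNKP1i. EIF5A had a log2 fold change of -0.61 against TH10785 and of -0.39 against PNKP1i, and EIF4H of -0.54 against TH10785 and of -0.41 against PNKP1i, all called as falls. The EIF5A call against PNKP1i was lost without both-compound replicates 1 or 3, TH10785 replicate 2, PNKP1i replicates 1 or 3 or DMSO replicates 1, 2 or 3 (log2 -0.39 to -0.30, adjusted p between 0.0538 and 0.199), and with a replicate block or upper quartile scaling. With the offsets neither EIF5A (log2 -0.09, adjusted p = 0.594) nor EIF4H (log2 -0.21, adjusted p = 0.0902) passed against PNKP1i. EIF4EBP1 rose against TH10785 (log2 0.86, SE 0.16, adjusted p = 0.000596) and did not pass against PNKP1i (log2 0.31, SE 0.15, adjusted p = 0.107). With the offsets EIF4EBP1 was called as a rise against PNKP1i too. EIF3L, which did not pass against DMSO, fell against PNKP1i (log2 -0.36, SE 0.11, adjusted p = 0.0119). The core factors that fell against PNKP1i numbered 4 without PNKP1i replicate 1 or 3, 3 without both-compound replicate 3 and 14 without TH10785 replicate 3, where all libraries gave 7. Over all genes 2848 fell without PNKP1i replicate 1, 2866 without its replicate 3 and 3008 without both-compound replicate 3. Without TH10785 replicate 3 4304 fell, against 3719 with every library. Without replicate 3 of TH10785, 12 core factors rose and 3 fell against TH10785, where all libraries gave 15 and 6, and 3 fell without both-compound replicate 3. Over all genes 3058 rose and 2623 fell against TH10785 without its replicate 3, and 2793 fell without both-compound replicate 3. With every library 3918 rose and 3399 fell.

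The combination differed from the sum of the single effects for 20 of the 52 genes, all core factors, where 30.6% of all genes did. This interaction (the log2 fold change of the combination over DMSO less the sum of those of the single agents) was above 0 for 13 genes and below 0 for 7, against 16.5% and 14.1% of all genes. EIF5B had the largest (log2 1.69, SE 0.30, adjusted p = 0.00456): it rose with both compounds, while each single agent had a mean below that of DMSO. EIF3A (log2 1.44, SE 0.28, adjusted p = 0.00561), EIF3E (log2 1.25, SE 0.28, adjusted p = 0.00708), EIF4G3 (log2 1.13, SE 0.21, adjusted p = 0.0055) and EIF2A (log2 1.10, SE 0.31, adjusted p = 0.017) followed. EIF4E (log2 0.97, SE 0.27, adjusted p = 0.0146), EIF5 (log2 0.91, SE 0.21, adjusted p = 0.00729), EIF2S2 (log2 0.90, SE 0.23, adjusted p = 0.0109) and EIF3J (log2 0.86, SE 0.20, adjusted p = 0.00743) had interactions of less than 1. The remaining positive ones were EIF1AX (0.78), EIF2S3 (0.71), EIF4G2 (0.67) and EIF2S1 (0.48).

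The 7 genes below 0 were EIF3G (log2 -0.59, SE 0.20, adjusted p = 0.0323), EIF2B2 (log2 -0.58, SE 0.19, adjusted p = 0.0265), EIF4E2 (log2 -0.58, SE 0.19, adjusted p = 0.0279), EIF2B4 (log2 -0.55, SE 0.19, adjusted p = 0.036), EIF4H (log2 -0.51, SE 0.16, adjusted p = 0.0241), EIF3I (log2 -0.51, SE 0.19, adjusted p = 0.0474) and EIF2B5 (log2 -0.44, SE 0.16, adjusted p = 0.0468). Of these EIF3G, EIF3I and the 3 eIF2B genes were within 0.12 of the DMSO level on the log2 scale with both compounds and had higher means with each single agent. EIF4EBP1 lay on the line of the sum, with an interaction of 0.01 on the log2 scale (adjusted p = 0.98), and no kinase passed.

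The number of negative interactions moved with single libraries. Their number was 0 without both-compound replicate 3, without PNKP1i replicate 1 or 3, or without DMSO replicate 3, it was 3 without TH10785 replicate 3, and it was 11 without TH10785 replicate 1 or both-compound replicate 2. Over all genes negative interactions numbered 1854 without both-compound replicate 3, 1675 and 1582 without PNKP1i replicates 1 and 3, and 1624 without DMSO replicate 3. They numbered 2055 without TH10785 replicate 3, 2940 without its replicate 1 and 2710 without both-compound replicate 2. Every library together gave 2434. The number of core factors above 0 was between 10 and 13 in all 12 such fits. Over all genes 3519 interactions were called when PNKP1i replicate 1 was left out, 3492 when its replicate 3 was and 3501 when DMSO replicate 3 was, against 5289 with every library. Of the genes above 0, EIF4G2 lost its call without PNKP1i replicate 3 or DMSO replicate 3 (log2 0.61 to 0.63, adjusted p between 0.0535 and 0.058), EIF1AX without both-compound replicates 1 or 3, PNKP1i replicates 1 or 3 or DMSO replicates 1 or 3 (log2 0.71 to 0.76, adjusted p between 0.0555 and 0.0795), and EIF2S1 without both-compound replicates 1, 2 or 3, TH10785 replicate 3, PNKP1i replicates 1, 2 or 3 or DMSO replicates 1, 2 or 3 (log2 0.33 to 0.51, adjusted p between 0.0599 and 0.108). With GC and length offsets EIF5B (log2 0.83, adjusted p = 0.00679), EIF3A (log2 0.91, adjusted p = 0.00382), EIF4G3 (log2 0.85, adjusted p = 0.00245), EIF2S2 (log2 0.73, adjusted p = 0.0116), EIF3E (log2 0.55, adjusted p = 0.0234), EIF2B2 (log2 -0.85, adjusted p = 0.0166) and EIF4E2 (log2 -0.69, adjusted p = 0.014) kept theirs and the other 13 did not. In that fit EIF2D, EIF3F, EIF3H, EIF3M and EIF4EBP2 gained a negative interaction. With them 5 of the 52 genes were called above 0 and 7 below, where 1312 of all 17290 genes were called above 0 and 1952 below.

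**Figure D4:**
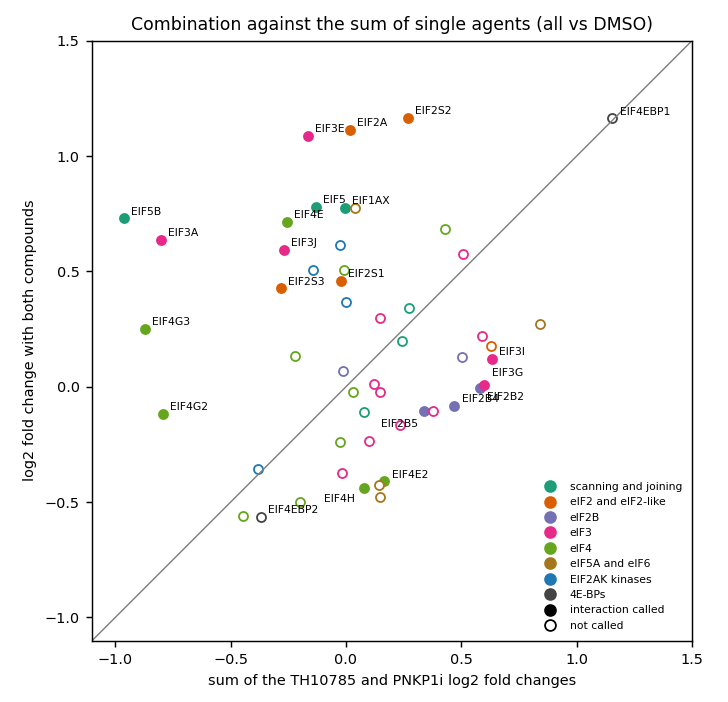
Log2 fold change with both compounds (vertical) against the sum of the TH10785 and PNKP1i log2 fold changes (horizontal) for the 52 genes, all against the same DMSO libraries; the line marks equality. Filled points are the 20 genes with a called interaction: 13 lie above the line, with EIF5B farthest, and 7 below it.

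The direction of a gene with both compounds went with the base composition of its transcript. Of the 12 genes under 40% GC, 11 rose and 0 fell, with a median log2 fold change of 0.66. Among the 2369 tested genes of that band 53.2% rose and 1.94% fell, with a median of 0.65. Between 40% and 50% GC, 8 of 27 rose and 5 fell, with a median of 0.07. Over the 6650 genes of that band 27.4% rose and 10.2% fell, with a median of 0.22. Between 50% and 60% GC, 0 of 11 rose and 3 fell, with a median of -0.10, where 8.55% of 5659 genes rose and 28.9% fell, with a median of -0.19. At or over 60% GC stood 2 genes, EIF3G, which did not pass, and EIF4EBP1 with 65.5%, which rose, while of the 2604 genes of that band 4.38% rose and 40.3% fell, with a median of -0.36. The same bands shifted between libraries: the median of genes under 40% GC was 0.39 to 0.67 above the DMSO mean in the 3 both-compound libraries. In PNKP1i replicates 1, 2 and 3 that median stood at -0.22, -0.07 and -0.18 against the same mean. The median of genes between 50% and 60% GC stood at 0.07, 0.03 and 0.07 there. A fit with per-library offsets for GC content and length kept 14 of the 28 calls of the combination in their direction. Those were the rises of EIF2S2, EIF2A, EIF3A, EIF3E, EIF5, EIF4A1, EIF2AK4 and EIF4EBP1 and the falls of EIF3F, EIF4A3, EIF4E2, EIF4H, EIF2AK1 and EIF4EBP2.

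**Figure D5:**
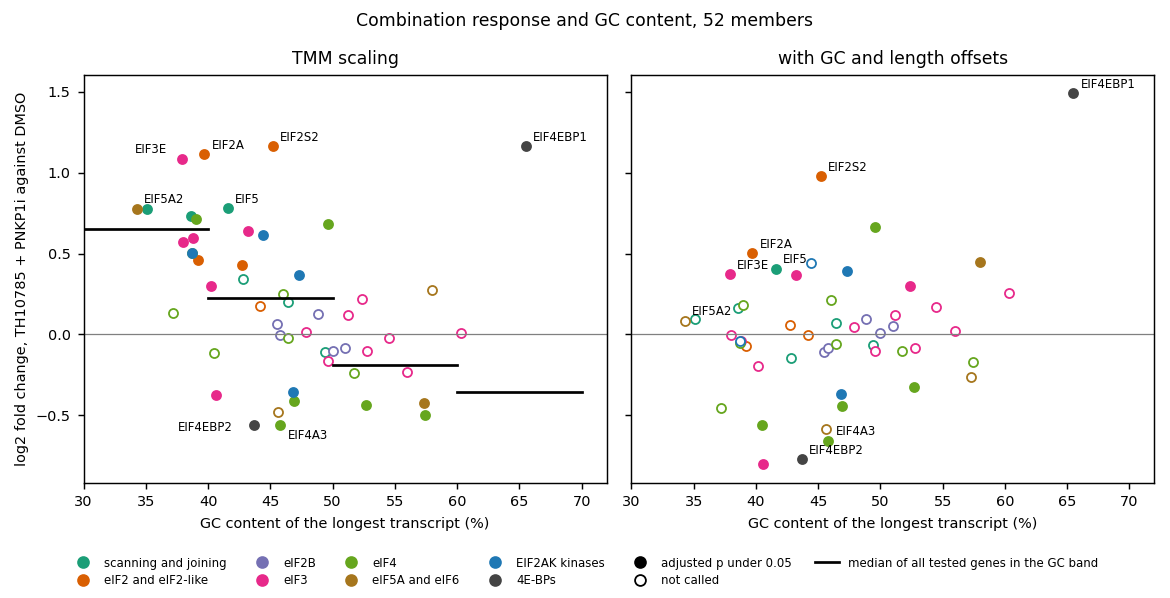
Log2 fold change with both compounds against DMSO by GC content of each gene's longest transcript, for the 52 genes with TMM scaling (left) and with per-library GC and length offsets (right). Filled points passed an adjusted p of 0.05, and black bars give the median of all tested genes in each GC band on the left. These medians go down with GC content, from 0.65 to -0.36, and on the right EIF4EBP1 and EIF2S2 stand highest.

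Ratios between paralogues were taken within each library, without GC offsets. The log2 ratio of EIF4EBP1 to EIF4EBP2 (per kb) was 4.79, 4.82 and 4.42 with both compounds, 3.33, 3.38 and 3.75 in TH10785 cells, 4.04, 3.62 and 4.09 in PNKP1i cells and 3.06, 3.07 and 2.74 in DMSO cells. Each treated group lay above DMSO, by 1.72 with both compounds, 0.53 with TH10785 and 0.96 with PNKP1i. The EIF4E to EIF4E2 ratio was -2.01 ± 0.34 with both compounds and -3.15 ± 0.32 with DMSO (SD, n = 3 each), a difference of 1.14. EIF5A to EIF5A2 was 7.05 ± 0.46 with both compounds and 8.24 ± 0.17 with DMSO, a difference of -1.19. EIF4G1 to EIF4G3 was 3.92 ± 0.10 with both compounds and 4.67 ± 0.14 with DMSO, a difference of -0.74. The paralogues of a pair differ in GC content, and the offsets brought these 3 pairs closer: against DMSO the log2 fold changes with offsets were 0.18 for EIF4E and -0.44 for EIF4E2, -0.27 for EIF5A and 0.08 for EIF5A2, and -0.17 for EIF4G1 and 0.21 for EIF4G3.

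The EIF4G1 to EIF4G2 ratio went opposite ways: it differed from DMSO by -0.38 with both compounds and by 0.38 with PNKP1i. These transcripts hold 57.4% GC for EIF4G1 and 40.5% for EIF4G2. Genes under 40% GC had medians of -0.22, -0.07 and -0.18 against the DMSO mean in PNKP1i replicates 1, 2 and 3. Whether base composition bears on the ratio with PNKP1i was not tested. The offsets turned the order of this pair with both compounds, with log2 fold changes of -0.17 for EIF4G1 and -0.56 for EIF4G2. EIF1 to EIF1B differed from DMSO by -0.14 with both compounds. In each of these comparisons the groups did not overlap, and an exact two-sided permutation test of 3 against 3 libraries gave p = 0.1, the smallest it allows. Over the 24 comparisons (8 pairs and 3 treated groups) the Benjamini-Hochberg adjusted value was 0.267. EIF4A1 to EIF4A2 and EIF2AK3 to EIF2AK4 overlapped with DMSO in each treated group.

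Genes around initiation were described from 4 further lists. Of 8 genes that control eIF2 phosphorylation or read it, 5 rose with both compounds and 0 fell, with a median of 0.67. DDIT3 (CHOP) rose most (log2 2.34, adjusted p = 1.22e-05), then PPP1R15A (GADD34), the subunit that directs eIF2 dephosphorylation (log2 1.69, adjusted p = 8.38e-05). PPP1R15A was at 226, 97.5 and 104 CPM with both compounds and 41.7, 48.1 and 42.2 CPM with DMSO, with replicate 1 of both compounds far above its partners and no overlap between the groups. IMPACT, an inhibitor of GCN2, rose (log2 0.87), as did ATF4 (log2 0.75) and DNAJC3, an inhibitor of PERK and PKR (log2 0.60). With GC and length offsets 3 of the 8 genes rose and 0 fell, with a median of 0.18.

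Of 15 genes of mTORC1 and the MNK kinases, which act on the 4E-BPs and on eIF4E, 4 rose and 3 fell. DDIT4 (log2 1.54, adjusted p = 4.51e-07) and SESN2 (log2 0.90, adjusted p = 0.00151), which restrain mTORC1, rose, as did RPS6KB1 (log2 0.59) and RHEB (log2 0.39). RPTOR (log2 -0.65), AKT1S1 (log2 -0.64) and MTOR (log2 -0.27) fell. With GC and length offsets 3 of the 15 genes rose and 0 fell. DDIT4 was the only gene of the 4 lists that passed with a single agent in the fit without offsets, PNKP1i (log2 0.88, adjusted p = 0.00241). With the offsets 1 gene of elongation and termination rose with TH10785. With PNKP1i 1 gene of mTORC1 and MNK and 1 gene of eIF2 phosphorylation control rose in that fit.

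Of 16 initiation-linked genes 5 rose and 1 fell, with a median of 0.18. MTIF2, the mitochondrial initiation factor (log2 1.14, adjusted p = 0.00182), DHX29, a helicase for structured leaders (log2 1.01, adjusted p = 0.00477), BZW1 (log2 0.75), PDCD4, an inhibitor of eIF4A (log2 0.69), and DDX3X (log2 0.54) rose, and PABPC4 fell (log2 -0.31). Of 12 tested genes of elongation and termination 4 rose and 3 fell. ETF1, the release factor (log2 0.81, adjusted p = 0.000856), ABCE1 (log2 0.59), EEF1B2 (log2 0.55) and EEF1A1 (log2 0.48) rose, while EEF1A2 (log2 -0.98, adjusted p = 0.000189), EEF2 (log2 -0.43) and DOHH, which completes hypusine on eIF5A (log2 -0.48), fell. Shares of all tested genes that rose and fell, 21.3% and 19.7%, are the background for the counts without offsets. With GC and length offsets 2 of the 16 initiation-linked genes rose and 4 fell, with a median of -0.02. In that fit 4 of the 12 genes of elongation and termination rose and 2 fell. Over all 17290 tested genes 2863 rose and 3023 fell with the offsets.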

How the data were processed

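The 12 U2OS libraries, 3 in each of 4 groups, came from TRIzol RNA and a NEBNext Ultra kit and were read in pairs, per the labels' protocols. Builds GRCh38 (hg38) and the tools DESeq2 1.30.1, HTSeq 0.6.1 and HISAT2 2.0.5 are named, without their roles, in the submitters' processing notes. Strand and annotation are not given in the sources used here. The table of raw counts deposited by the authors holds read counts for 58735 genes, and all its identifiers are in GENCODE 29. The other deposited table holds a signal for 35754 genes, the count divided by 1 size factor per library, and was used only for that check.

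Counts were scaled by TMM and tested in edgeR 4.0.16 (R 4.3.3) with 1 robust quasi-likelihood fit of all 12 libraries, after a filter (filterByExpr, minimum count 10, minimum total 15) that left 17290 genes. P-values were two-sided, adjusted by Benjamini-Hochberg over all tested genes and called under 0.05. SE is the log2 fold change divided by the square root of F. CPM are TMM-scaled, and length is exon length per kb. Words of 100 bases were compared between GENCODE 29 transcripts. Alternatives were other scalings, filters and tools (DESeq2 1.42.0, limma 3.58.1), a fit of the compared groups, a tested fold of 1.2, a replicate block, per-library GC and length splines, and leaving out each library. Depth was 16225339 to 21546369 counts per library, and the biological coefficient of variation was 15.4%.

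Members and lists were chosen with earlier results of these data known. Values in every library are given for up to 4 called genes of each role with the smallest p against DMSO with both compounds, genes called with a single agent or in the interaction, kinases, 4E-BPs and paralogue pairs. No pair of libraries within a group held identical counts.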

Additional observations from a re-analysis of the deposited data

Results flagged for a closer look

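For 20 initiation factor genes the effect of PNKP1i on top of TH10785 differed from its effect in DMSO by edgeR's interaction test. The interaction was above 0 for EIF5B at 1.69, EIF3A at 1.44, EIF3E at 1.25, EIF4G3 at 1.13, EIF2A at 1.10, EIF4E at 0.97, EIF5 at 0.91, EIF2S2 at 0.90, EIF3J at 0.86, EIF1AX at 0.78, EIF2S3 at 0.71, EIF4G2 at 0.67 and EIF2S1 at 0.48 on the log2 scale. It was below 0 for EIF3G at -0.59, EIF2B2 at -0.58, EIF4E2 at -0.58, EIF2B4 at -0.55, EIF4H at -0.51, EIF3I at -0.51 and EIF2B5 at -0.44. Of all tested genes 30.6% had a called interaction.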

How the results depend on the processing

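The replicate numbers did not pair the libraries: deviations of same-numbered libraries correlated at a median of -0.04 (-0.25 to 0.13 over 18 pairs). With a replicate block the genes called numbered 62 for TH10785 (97 without it), 15 for PNKP1i (34 without it), and for both compounds 6449 against DMSO, and 3 core factors had a negative interaction (7 without it). Over all genes 2053 had a negative interaction with the block and 2434 without it.

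Over all genes the TH10785 count of 97 was 318 by DESeq2, 513 with no filter, 56 with a tested fold of 1.2 and 285 with GC and length offsets. The PNKP1i count of 34 was 111 by DESeq2, 189 with no filter, 1150 in a fit of the groups compared, 12 with a tested fold of 1.2 and 91 with the offsets, and the fit of the groups compared called 3 core factors up and 4 down. With a tested fold of 1.2, core factors that rose with both compounds against DMSO numbered 10 and those that fell 2. Over all genes 2614 rose and 2330 fell in that fit. With the tested fold 3 core factors fell against TH10785, 1 fell against PNKP1i and 0 had a negative interaction. Over all genes 2222 fell against TH10785, 2457 fell against PNKP1i and 1548 had a negative interaction. In fits of the groups compared, 3 core factors fell against TH10785 and 14 against PNKP1i, where 2373 and 3791 fell over all genes. With the offsets 8 core factors rose against DMSO, 8 rose and 10 fell against TH10785, and 7 rose and 9 fell against PNKP1i. With them 5 had a positive and 6 a negative interaction, among 3264 interactions over all genes. Over all 17290 genes the offsets gave 2863 rises and 3023 falls against DMSO. They gave 2610 rises and 3168 falls against TH10785, and 2729 and 3026 against PNKP1i.

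The offsets turned 22 values, and the cause was not tested. Against DMSO these were EIF3H at -0.20, EIF4A2 at -0.0545, EIF2S1 at -0.0740, EIF3M at -0.00297, EIF3J at -0.0421 and EIF2AK2 at -0.0389 on the log2 scale. Against TH10785 they were EIF4A2 at -0.23, EIF2S1 at -0.24, EIF3M at -0.45, EIF2AK2 at -0.0911, EIF1AX at -0.11, EIF4E at -0.0124 and EIF5A2 at -0.10. Against PNKP1i they were EIF4G2 at -0.28, EIF4A2 at -0.18, EIF2S1 at -0.17, EIF3M at -0.40, EIF2AK2 at -0.23 and EIF5A2 at -0.0671. In the interaction they were EIF4G2 at -0.12, EIF2S1 at -0.34 and EIF1AX at -0.14.

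Leaving out 1 library gave 44 to 178 calls over all genes for TH10785, with 0 core factors in each fit. For PNKP1i it gave 7 to 301, with 0 core factors up and 0 to 2 down. The lowest TH10785 count was without DMSO replicate 2, with 47 without DMSO replicate 3 and 53 without TH10785 replicate 2, and the highest without both-compound replicate 1. The PNKP1i count was 7 without PNKP1i replicate 1, 8 without DMSO replicate 3, 9 without PNKP1i replicate 3, 13 without DMSO replicate 2, 22 without DMSO replicate 1 or TH10785 replicate 2, 67 without both-compound replicate 1 and 301 without TH10785 replicate 3. For both compounds against DMSO, 12 to 18 core factors rose and 3 to 6 fell, with 5149 to 8468 calls over all genes. Against TH10785, 12 to 17 rose and 3 to 8 fell (5647 to 7603), and against PNKP1i 14 to 16 rose and 3 to 14 fell (6169 to 9100). The interaction gave 10 to 13 above 0 and 0 to 11 below, with 3492 to 6140 calls over all genes.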
